A study of Homo sapiens with 10 samples.

Results

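Cholesterol and fatty acid synthesis was followed through 28 genes, of 28281 gene symbols counted, in wild-type and APE1 knockout lung cancer cells. The genes were taken by name: 6 of the mevalonate steps, 10 of the squalene and sterol steps, 4 regulators or sterol carriers and 8 of fatty acid synthesis. All 28 were present in both count tables and passed the filter on low counts in each comparison. The study sequenced poly(A) RNA of 10 libraries from A549 and NCI-H1944 (H1944 below), established human lung adenocarcinoma lines. The groups were A549 with APEX1, the gene of APE1, knocked out (KO, 3 libraries), A549 wild type (WT, 3), H1944 KO (2) and H1944 WT (2). The A549 KO libraries are called here by the numbers of their columns, 16, 65 and 66, which carry no genotype. They were taken as KO because every other column is named for another group, and every A549 comparison below rests on that. A549 was grown in DMEM and H1944 in RPMI1640 with sodium pyruvate, each with 10% fetal bovine serum and antibiotics. The labels name neither the knockout method nor separate clones or cultures behind the libraries of a group, so the p-values cover the spread among these libraries alone, which can be technical. APE1 cuts DNA at abasic sites during base excision repair and also alters the redox state of transcription factors, and the study's title asks about its part in transcription at G-quadruplexes, 4-stranded structures of guanine-rich DNA.

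Cells make cholesterol from acetyl-CoA through mevalonate, farnesyl diphosphate, squalene and lanosterol, and fatty acids from acetyl-CoA through malonyl-CoA. The enzymes of both routes are known targets of the SREBP transcription factors, which SREBF1 and SREBF2 encode. When sterols are plentiful, INSIG proteins hold the SREBP precursors in the endoplasmic reticulum, and when sterols are scarce the precursors travel to the Golgi, are cleaved and enter the nucleus. SREBF2 products act mostly on sterol genes and SREBF1 products mostly on fatty acid genes.

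Depth was 18314224 to 30219850 counts per library, and levels below are CPM, counts brought to a common library size with TMM scaling within each line. APEX1 itself measured 60.1, 62.9 and 108 CPM in A549 KO 16, 65 and 66, against 167, 254 and 237 CPM in A549 WT 1, 2 and 3, and 87.0 and 87.6 CPM in H1944 KO, against 244 and 243 CPM in H1944 WT. It was lower in every KO library than in every WT library of its line, with edgeR adjusted p of 0.521 in A549 and 6.4e-19 in H1944. The A549 fall passed by DESeq2 (adjusted p 0.00146) and by no other alternative, where adjusted p ran from 0.0753 to 1.00. A549 comprised 2 library sets, each with both genotypes. KO 65 and WT 1 had counts of RNA28SN4, a ribosomal RNA locus, whereas KO 16, KO 66, WT 2 and WT 3 had 0, and every H1944 library had counts of it, so A549 values are also given within these sets. Ribosomal RNA genes took 14.2% of the counts in KO 16 and 0.139% to 7.18% in the other libraries. Of 6 epithelial markers 4 reached a mean of 1 CPM in H1944 KO and all 6 did in each other group. CDH1, an epithelial cadherin, measured 7.82 and 8.21 CPM in H1944 KO, against 211 and 211 CPM in H1944 WT, and EPCAM measured 1.13 and 0.771 CPM in H1944 KO, against 71.5 and 68.8 CPM in H1944 WT. Summed over the 6 markers the level was 17508 to 17904 CPM in H1944 KO and 9871 to 10035 CPM in H1944 WT, most of it KRT8 and KRT18. Of the leukocyte, endothelial and hepatocyte markers only CD68, CD14 and PECAM1 reached a mean of 1 CPM in any group, and the 6 fibroblast markers summed to 5.15 to 16.9 CPM. Of the lung adenocarcinoma lineage genes NKX2-1 was at 0 in H1944 and at most 0.136 CPM in A549, while FOXA1 measured 25.0 and 22.7 CPM in H1944 KO, against 50.04 and 50.3 CPM in H1944 WT. Summed over the 6 lineage genes the level was 23.5 to 25.99 CPM in H1944 KO and 59.8 to 61.6 CPM in H1944 WT. CD68, a lysosomal protein on the leukocyte list, measured 54.3 and 52.4 CPM in H1944 KO, against 26.7 and 28.4 CPM in H1944 WT, which set the sum of that list at 55.0 to 57.3 CPM in KO and 30.2 to 31.5 CPM in WT. PTPRC and CD3E, defining leukocyte genes, were at 0 in H1944 KO. The part of these differences in the lipid gene results was not tested.

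In H1944 the sterol arm was mostly lower in KO and the fatty acid arm went both ways. Of the 28 genes 9 rose and 17 fell, against 33.2% of all 16626 tested genes that rose and 33.9% that fell. In bulk RNA, fewer cells with a transcript and less of it per cell cannot be told apart. In 10 genes both KO libraries lay above both WT libraries and in 17 below, against 41.1% and 41.4% of all tested genes. Of the 17 that fell, 12 belong to the mevalonate and sterol steps. The median log2 fold change (KO over WT) was -0.14 over the 28 genes and -0.01 over all tested genes. Most changes were small: 1 gene, STARD4, rose at least 2-fold and 0 fell as much, against 10.1% and 11.3% of all tested genes. By at least 0.5 on the log2 scale 9 changed, 2 of them higher and 7 lower. The share of all tested genes at that limit was not taken, so this count has no background. Summed over the 28 genes, the level was 5947 and 5882 CPM in H1944 KO, against 6316 and 6322 CPM in H1944 WT.

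**Figure D1:**
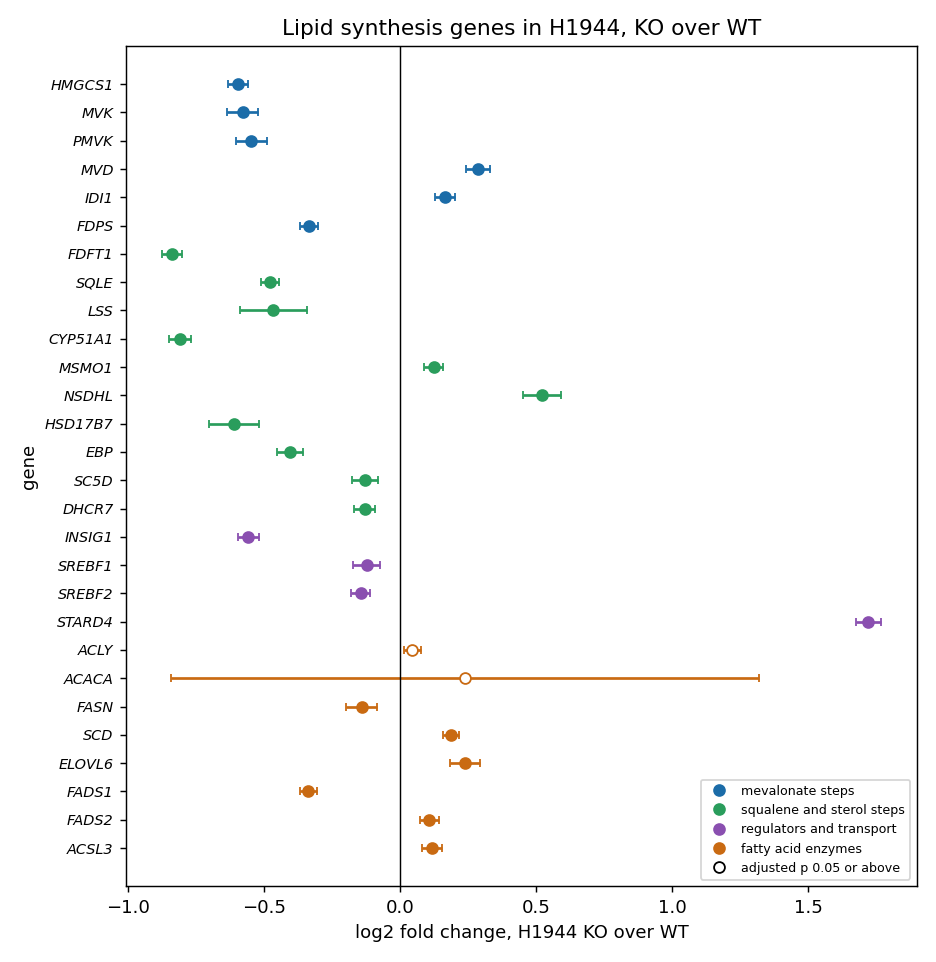
Log2 fold change of each gene in H1944, KO over WT (x axis), with genes by role (y axis); points are edgeR estimates from 2 against 2 libraries, error bars are approximate standard errors, and open points did not pass at an adjusted p of 0.05. STARD4 at 1.72 stands far to the right of the others, which lie between -0.84 and 0.52, and ACACA has by far the widest error bar.

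The early mevalonate enzymes fell in H1944 KO. HMGCS1, which condenses acetyl-CoA and acetoacetyl-CoA into HMG-CoA (chromosome 5, 43289395 to 43313512, minus strand, in GENCODE 29 on GRCh38), measured 373 and 359 CPM in KO, against 536 and 569 CPM in WT. The libraries of each genotype lay close together and far from the others (log2 fold change -0.60, SE 0.036, edgeR adjusted p 2.6e-12). MVK, which phosphorylates mevalonate, measured 42.4 and 43.2 CPM in KO, against 66.4 and 61.5 CPM in WT (log2 fold change -0.58). PMVK, the next kinase, measured 41.8 and 40.2 CPM in KO, against 61.6 and 57.97 CPM in WT (log2 fold change -0.55). Both kinases thus fell by about as much as HMGCS1. FDPS, which builds farnesyl diphosphate, measured 267 and 273 CPM in KO, against 336 and 344 CPM in WT (log2 fold change -0.33). The enzymes between the kinases and FDPS went the other way. MVD, which makes isopentenyl diphosphate, rose (99.3 and 97.1 CPM in KO, against 82.0 and 78.95 CPM in WT, log2 fold change 0.29), and so did its isomerase IDI1 (273 and 281 CPM in KO, against 240.1 and 254 CPM in WT, log2 fold change 0.17). Of these 6 genes, 2 rose and 4 fell, with edgeR adjusted p of at most 0.000433.

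Of the 10 squalene and sterol genes 8 fell and 2 rose. FDFT1, squalene synthase, which commits farnesyl diphosphate to sterols, had the largest fall of all 28 genes. It measured 156 and 158 CPM in H1944 KO, against 274 and 288 CPM in H1944 WT (log2 fold change -0.84, SE 0.037, edgeR adjusted p 1.1e-14). CYP51A1, the lanosterol demethylase (chromosome 7, 92112151 to 92134803, minus strand), followed with 111 and 107 CPM in KO, against 188 and 195 CPM in WT (log2 fold change -0.81, SE 0.039, edgeR adjusted p 6.7e-14). The KO level was 0.560 of the WT level in FDFT1 and 0.571 of it in CYP51A1. SQLE, the squalene epoxidase, measured 246 and 250.4 CPM in KO, against 348 and 343 CPM in WT (log2 fold change -0.48). EBP, a sterol isomerase, measured 59.7 and 59.3 CPM in KO, against 79.7 and 77.8 CPM in WT (log2 fold change -0.40). HSD17B7, the ketoreductase of the demethylation complex, was low, at 13.5 and 13.4 CPM in KO, against 20.7 and 20.4 CPM in WT (log2 fold change -0.61). It has a close pseudogene copy, HSD17B7P2, which had 144 and 170 counts in KO and 94 and 74 counts in WT, so reads of the pair may have been split. LSS, the lanosterol synthase, measured 11.0 and 10.7 CPM in KO, against 16.8 and 13.1 CPM in WT (log2 fold change -0.47), a call lost without H1944 WT 1 (edgeR adjusted p 0.101). SC5D and DHCR7, which act late in the pathway, fell by 0.13 each on the log2 scale.

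The genes of this arm that rose encode enzymes that strip methyl groups from lanosterol products. CYP51A1 and HSD17B7, which also act in this demethylation, fell. NSDHL, a sterol dehydrogenase (chromosome X, 152830967 to 152869729, plus strand), measured 40.1 and 44.3 CPM in H1944 KO, against 28.3 and 30.5 CPM in H1944 WT (log2 fold change 0.52, SE 0.071, edgeR adjusted p 1.2e-06). MSMO1, the sterol methyl oxidase, measured 297 and 293 CPM in KO, against 268 and 273 CPM in WT (log2 fold change 0.12, edgeR adjusted p 0.00293). So within a single complex of consecutive enzymes, NSDHL and MSMO1 rose while HSD17B7 fell.

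Among regulators and carriers, STARD4 was the one gene with a large rise. STARD4 is a soluble protein that moves cholesterol between membranes and is a known SREBP target (chromosome 5, 111496033 to 111512590, minus strand). It measured 258 and 268 CPM in H1944 KO, against 75.8 and 83.7 CPM in H1944 WT. The KO libraries were 3.30-fold higher (log2 fold change 1.72, SE 0.044, edgeR adjusted p 1.5e-18). Per kilobase of annotated exon, a scale on which levels of different genes can be set side by side, STARD4 stood 9th of the 28 genes in H1944 KO (46.3 ± 1.26 CPM per kb, SD, n = 2) and 22nd in H1944 WT (14.0 ± 0.977). Its antisense neighbour STARD4-AS1, whose span overlaps the start of STARD4, had 490 and 456 counts in KO and 187 and 151 counts in WT. The strand setting of the counting is not given in the sources used here, so reads of the overlap could be assigned to either. STARD4 itself had 7325 and 7996 counts in KO and 1712 and 1755 counts in WT. The counts of both genes are not scaled for library size. The part of the overlap in the STARD4 values was not tested.

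INSIG1, which retains SREBP precursors and is itself raised by SREBP, fell. It measured 112 and 114 CPM in H1944 KO, against 162 and 170.4 CPM in H1944 WT (log2 fold change -0.56, SE 0.040, edgeR adjusted p 4.6e-11). The transcription factor genes moved little. SREBF2 measured 251 and 248 CPM in KO, against 283 and 269 CPM in WT (log2 fold change -0.14, edgeR adjusted p 0.00131). SREBF1 measured 138 and 137 CPM in KO, against 159 and 140.4 CPM in WT (log2 fold change -0.12, edgeR adjusted p 0.0351). For SREBF1 WT 1 and WT 2 differed by more than WT 2 did from the KO libraries, and the call was lost without any 1 of H1944 KO 1, KO 2 and WT 1 (edgeR adjusted p up to 0.557).

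**Figure D2:**
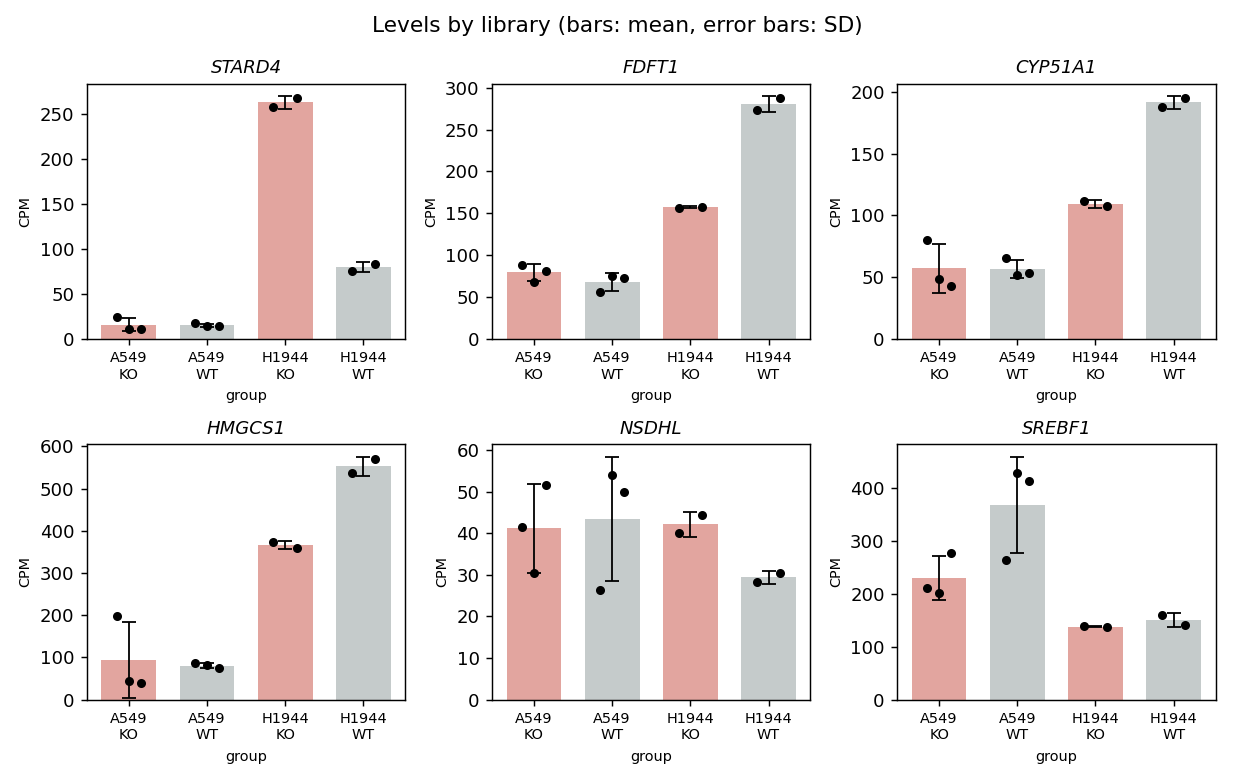
Level in CPM (y axis) of 6 genes in each group (x axis), KO left of WT in each line; points are libraries, bars are means and error bars SD (n = 3 in A549, n = 2 in H1944). STARD4 is higher in H1944 KO, at 258 and 268 CPM, while FDFT1, CYP51A1 and HMGCS1 are lower there, and in A549 the HMGCS1 level of 1 KO library, 197 CPM, lies above all others of that line.

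The fatty acid enzymes changed little in H1944: 4 rose, 2 fell and 2 did not pass. SCD, the stearoyl-CoA desaturase, had the highest level per kilobase of all 28 genes in H1944, at 191 ± 0.489 CPM per kb in KO and 168 ± 1.61 CPM per kb in WT (SD, n = 2 each). In CPM it measured 1025 and 1022 in KO, against 893 and 906 in WT (log2 fold change 0.19, edgeR adjusted p 9.9e-06). ELOVL6, which elongates long-chain fatty acids, rose by 0.24, ACSL3, an acyl-CoA synthetase of lipid droplets, by 0.12 and FADS2, a desaturase of polyunsaturated fatty acids, by 0.11 on the log2 scale. Its partner desaturase FADS1 fell, with 380.5 and 373 CPM in KO, against 471 and 480.5 CPM in WT (log2 fold change -0.34, edgeR adjusted p 7.2e-09). The annotated spans of FADS1 and FADS2 overlap on opposite strands, so reads of the overlap are uncertain for both. FASN, the fatty acid synthase, measured 321 and 305 CPM in KO, against 366 and 324 CPM in WT (log2 fold change -0.14, edgeR adjusted p 0.0485), a call near the threshold. ACLY, which cleaves citrate to acetyl-CoA, measured 391 and 383 CPM in KO, against 374 and 376 CPM in WT, and did not pass (log2 fold change 0.05, edgeR adjusted p 0.219). ACACA, acetyl-CoA carboxylase, measured 12.6 and 2.88 CPM in KO, against 4.38 and 8.72 CPM in WT, so its genotypes overlapped (edgeR adjusted p 0.875).

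These H1944 calls rest on a small spread, a biological coefficient of variation of 4.74% between the 2 libraries of a group. When a library is left out, its group keeps a single one. Such fits gave smaller edgeR adjusted p than the full fit for HMGCS1, FDFT1 and CYP51A1, so a call that stays is a weak check. Of the 26 called genes 18 (6 higher, 12 lower) stayed called without each library in turn, all but LSS, MSMO1, SC5D, DHCR7, SREBF1, FASN, FADS2 and ACSL3, and with all 10 libraries and their larger spread in one fit 2 did, STARD4 and FDFT1.

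The proximal promoters of the genes were read from the RefSeq table of GRCh38.p14, as windows of 300 bases from 250 before to 50 after an annotated start. The table held 34 windows for 25 of the 28 genes and none for FASN, FDFT1 and SQLE. The motifs searched on both strands were the SREBP element TCACNCCAC, the CCAAT box, which reads ATTGG on the other strand and binds NF-Y, a known partner of SREBP, and a G-quadruplex pattern of 4 runs of at least 3 guanines with spacers of 1 to 7 bases. A CCAAT box was present in 24 of the 34 windows, 70.6%, against 34.6% of all 35116 windows, and in 20 of 25 genes, 80.0%, against 42.3% of the genes tested in A549 that have a window. The SREBP element was found in 1 window, that of SREBF2, and in 1.13% of all windows. The G-quadruplex pattern was found in 14 of the 34 windows, 41.2%, against 25.0% of all windows and 33.4% of the windows of genes tested in A549. These are matches of letters, not binding sites, and a window without a match says only that the letters are not in it. Printed here are the windows of the gene with the large rise (STARD4), of HMGCS1 and CYP51A1, which fell, of NSDHL, which rose, and of SREBF2, which holds the single SREBP element. Capitals mark the CCAAT box on either strand, the SREBP element and the guanine runs with their spacers, which read as cytosine runs where the pattern lies on the other strand.
STARD4, chr5:111512486-111512785, minus strand: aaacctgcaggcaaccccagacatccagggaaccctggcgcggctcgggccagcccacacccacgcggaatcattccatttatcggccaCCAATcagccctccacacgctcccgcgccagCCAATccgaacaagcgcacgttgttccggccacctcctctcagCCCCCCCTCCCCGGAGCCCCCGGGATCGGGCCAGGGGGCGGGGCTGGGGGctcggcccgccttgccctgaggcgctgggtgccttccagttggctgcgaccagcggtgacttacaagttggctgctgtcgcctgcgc
HMGCS1, chr5:43313363-43313662, minus strand: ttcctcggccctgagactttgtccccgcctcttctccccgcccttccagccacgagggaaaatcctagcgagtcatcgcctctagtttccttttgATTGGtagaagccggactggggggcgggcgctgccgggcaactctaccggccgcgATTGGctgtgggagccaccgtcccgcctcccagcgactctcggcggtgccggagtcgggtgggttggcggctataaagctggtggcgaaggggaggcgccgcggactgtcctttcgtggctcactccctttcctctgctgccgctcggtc
CYP51A1, chr7:92134428-92134727, minus strand: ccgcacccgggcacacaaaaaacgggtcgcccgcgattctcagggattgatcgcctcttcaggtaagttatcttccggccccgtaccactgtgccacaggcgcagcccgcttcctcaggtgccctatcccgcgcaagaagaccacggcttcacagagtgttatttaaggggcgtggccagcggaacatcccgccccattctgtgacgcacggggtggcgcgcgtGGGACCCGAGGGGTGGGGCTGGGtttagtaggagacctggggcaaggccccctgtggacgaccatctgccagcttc
NSDHL, chrX:152830813-152831112, plus strand: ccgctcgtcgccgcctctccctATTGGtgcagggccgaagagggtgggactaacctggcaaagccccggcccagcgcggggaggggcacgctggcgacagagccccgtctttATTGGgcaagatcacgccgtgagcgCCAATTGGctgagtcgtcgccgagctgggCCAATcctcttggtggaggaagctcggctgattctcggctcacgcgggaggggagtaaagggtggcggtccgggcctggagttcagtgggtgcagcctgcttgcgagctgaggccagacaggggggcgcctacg
SREBF2, chr22:41832855-41833154, plus strand: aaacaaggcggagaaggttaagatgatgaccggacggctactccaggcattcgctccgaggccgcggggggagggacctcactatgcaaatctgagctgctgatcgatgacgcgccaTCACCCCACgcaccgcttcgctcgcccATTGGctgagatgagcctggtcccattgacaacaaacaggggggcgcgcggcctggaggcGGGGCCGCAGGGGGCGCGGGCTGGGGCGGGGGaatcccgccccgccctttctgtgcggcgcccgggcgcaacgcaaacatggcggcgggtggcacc

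STARD4 had 2 CCAAT boxes, at positions -161 and -130 relative to its start, followed by 2 adjoining G-quadruplex patterns, on opposite strands. In the first pattern, 1 long run of cytosines was read as 2 runs with a spacer between them. NSDHL had 5 CCAAT boxes, of which 2 overlap in a palindrome, and no G-quadruplex pattern. HMGCS1 had 2 boxes in the window shown and none in its other annotated window. CYP51A1 had no CCAAT box and 1 G-quadruplex pattern ending close to its start. The CCAAT box was thus found in genes that rose and in genes that fell.

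Lists of other lipid handling genes were taken whole, but were chosen with earlier results of these data known. On them 36 of 98 tested genes rose in H1944 KO, 36.7%, and 38 fell, 38.8%, near the 33.2% and 33.9% of all tested genes. The counts of the single lists are given as a description. Of 9 genes of SREBP processing 4 rose, 2 fell and 3 did not pass. SCAP, the escort of the SREBP precursors, measured 67.6 ± 5.73 CPM in KO and 64.3 ± 4.96 CPM in WT (SD, n = 2 each, edgeR adjusted p 0.349). ERLIN2, an endoplasmic reticulum protein of sterol-regulated degradation, measured 25.9 ± 2.14 CPM in KO and 58.9 ± 1.703 CPM in WT (log2 fold change -1.19), while MBTPS1, the first SREBP protease, rose by 0.20 on the log2 scale. Of 11 other isoprenoid and sterol enzymes 4 rose, 4 fell and 3 did not pass. LBR, a nuclear envelope protein with sterol reductase activity, measured 107 ± 3.60 CPM in KO and 447 ± 0.685 CPM in WT (log2 fold change -2.07). TM7SF2, the other enzyme with that activity, measured 29.6 ± 0.593 CPM in KO and 16.4 ± 0.0128 CPM in WT (log2 fold change 0.85). DHDDS, which makes dolichol precursors, rose by 0.66 on the log2 scale.

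Of 22 tested genes among 25 other fatty acid enzymes 11 rose, 6 fell and 5 did not pass. SCD5, a second stearoyl-CoA desaturase, measured 17.96 ± 0.201 CPM in H1944 KO and 1.19 ± 0.0677 CPM in H1944 WT (SD, n = 2 each, log2 fold change 3.91), a far lower level than that of SCD in the same cells. FADS3, a sphingoid base desaturase, measured 45.3 ± 0.726 CPM in KO and 9.97 ± 0.552 CPM in WT (log2 fold change 2.18), and ELOVL7, a fatty acid elongase, 2.27 ± 0.0303 CPM in KO and 18.4 ± 0.795 CPM in WT (log2 fold change -3.01). Of 14 tested genes of cholesterol efflux, storage and LXR 7 rose, 5 fell and 2 did not pass. NPC1 and NPC2, which carry cholesterol out of lysosomes, rose by 0.91 and 1.16 on the log2 scale. SOAT1, which esterifies cholesterol for storage, measured 87.8 ± 2.07 CPM in KO and 225 ± 2.01 CPM in WT (log2 fold change -1.36). Of 16 tested triglyceride and lipid droplet genes 4 rose, 5 fell and 7 did not pass, with MGLL, a monoglyceride lipase, at -1.47, the droplet coat gene PLIN3 at 0.92 and the fatty acid carrier FABP5 at 0.59.

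On the list of fatty acid oxidation genes and their regulators most RNA levels were lower in H1944 KO. Of 26 genes 16 fell, 6 rose and 4 did not pass, against 33.9% of all tested genes that fell and 33.2% that rose. The list's median log2 fold change was -0.21, against -0.01 over all tested genes. PPARGC1A, a coactivator of oxidative metabolism, measured 7.75 ± 0.653 CPM in H1944 KO and 45.7 ± 1.74 CPM in H1944 WT (SD, n = 2 each, log2 fold change -2.56). CPT1A, which admits long-chain acyl groups to mitochondria, measured 62.0 ± 1.6 CPM in KO and 133 ± 3.57 CPM in WT (log2 fold change -1.10), and the peroxisomal enzyme HSD17B4 fell by 1.05 on the log2 scale. Apart from SCAP, the genes named from these lists were those whose adjusted p in this same comparison was among the 3 smallest of their list. Low values were thus set by the choice, and each gene said to have risen or fallen had an edgeR adjusted p of at most 0.000240.

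**Figure D3:**
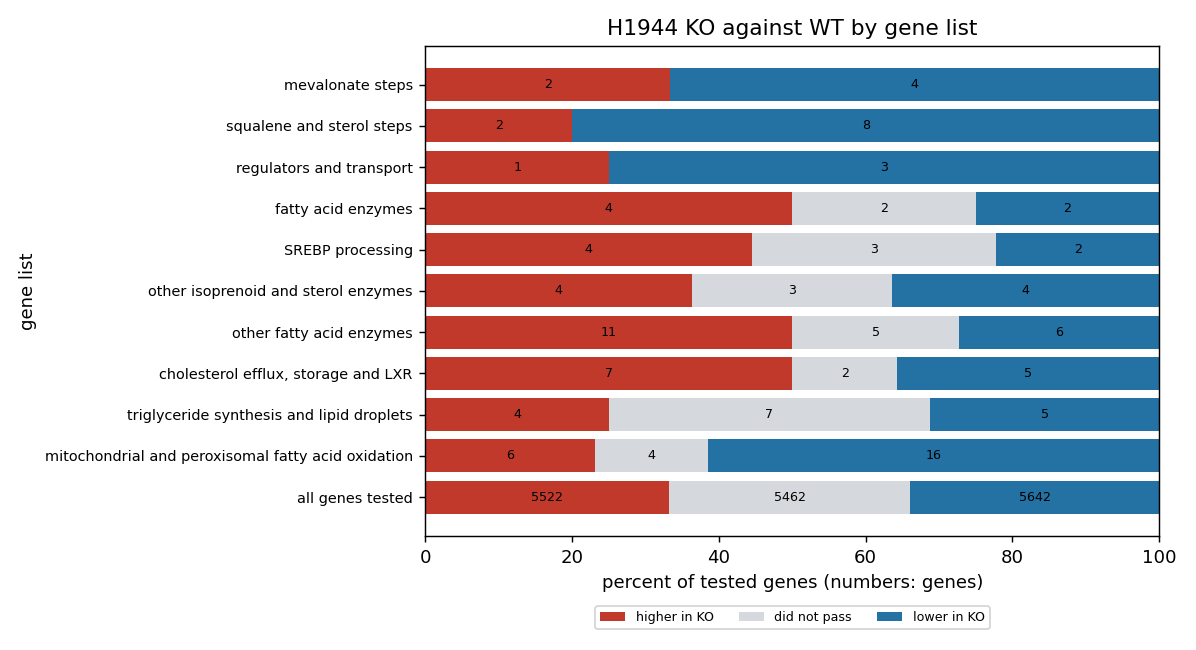
Share of tested genes (x axis, percent; numbers are genes) that were higher in KO, did not pass or were lower in KO in H1944, for each gene list (y axis) and for all tested genes at the bottom. The mevalonate, sterol and fatty acid oxidation lists have more genes lower than higher in KO, 4 against 2, 8 against 2 and 16 against 6, where over all tested genes 5642 were lower and 5522 higher.

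In A549 no gene of the 28 passed over all genes. By edgeR 0 rose and 0 fell, where 0.00633% of 15806 tested genes rose and 0% fell, and by DESeq2 and limma-voom the 28 genes also gave 0 calls. At an unadjusted p under 0.05 there was 1 gene, SREBF1, against 5.66% of all tested genes. The median log2 fold change was -0.08 over the 28 genes and 0.02 over all tested genes. Of the 28 genes 10 were above 0 and 18 below, against 8243 and 7563 of all 15806 tested genes. SREBF1 measured 211, 201 and 277 CPM in A549 KO 16, 65 and 66, against 264, 428 and 413 CPM in A549 WT 1, 2 and 3. Its genotypes overlapped by 1 library each, KO 66 and WT 1, which belong to different sets (log2 fold change -0.68, SE 0.25, edgeR adjusted p 0.819, 2-sided exact permutation p 0.2). Within the sets it was lower in KO 16 and KO 66 than in the mean of WT 2 and WT 3, by -0.99 and -0.60 on the log2(CPM + 0.5) scale, and in KO 65 than in WT 1, by -0.39. MSMO1 was the 1 gene with every KO library above every WT library, against 6.11% of all tested genes, and 0 genes had every KO library below every WT library, against 4.6%. It measured 40.7, 27.6 and 26.3 CPM in KO 16, 65 and 66, against 25.3, 24.3 and 24.7 CPM in WT 1, 2 and 3 (log2 fold change 0.35, SE 0.22, edgeR adjusted p 0.995, 2-sided exact permutation p 0.1, the smallest that 3 against 3 libraries allow).

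The A549 KO libraries did not move together. Against the WT libraries of its set, KO 16 was higher in 17 of the 28 genes (median 0.30 on the log2(CPM + 0.5) scale), KO 66 in 6 (median -0.25) and KO 65 in 7 (median -0.24). Over all tested genes the shares higher were 52.8%, 50.6% and 46.8% in the same order. HMGCS1 showed the widest gap, with 197 CPM in KO 16, 44.1 CPM in KO 65 and 39.5 CPM in KO 66, against 85.4, 80.97 and 73.7 CPM in WT 1, 2 and 3. The KO libraries thus lay on both sides of the WT libraries, which lay close together, and the fold change had no stable sign (0.22, and -0.94 without KO 16). KO 16 exceeded KO 66 by more than 0.5 on the same scale in 14 of the 28 genes, 50%, against 24.3% of all tested genes. These included STARD4 (23.8 CPM in KO 16 and 11.5 CPM in KO 66), INSIG1 (29.1 and 14.1 CPM), SC5D (21.7 and 10.5 CPM), SCD (456 and 218 CPM) and SQLE (77.6 and 42.0 CPM). PMVK and MVD went the other way, with 32.1 and 17.8 CPM in KO 16 and 52.5 and 28.1 CPM in KO 66. Among the 28 genes 8 lay below WT of the same set in all 3 KO libraries (MVK, FDPS, LSS, EBP, DHCR7, SREBF1, FASN and FADS2), 4 lay above it in all 3 (FDFT1, MSMO1, SREBF2 and ACACA) and 16 were mixed, which is 28.6%, 14.3% and 57.1%. Over all tested genes the shares were 16.8%, 17.2% and 65.9%. KO 16 and KO 66 were set against the same WT libraries, so their signs are not independent. KO 16 also had the highest ribosomal RNA share of the A549 libraries, 14.2% against 7.18% in KO 66, and its part in these differences was not tested. The other lipid lists also had 0 genes called by edgeR in A549.

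**Figure D4:**
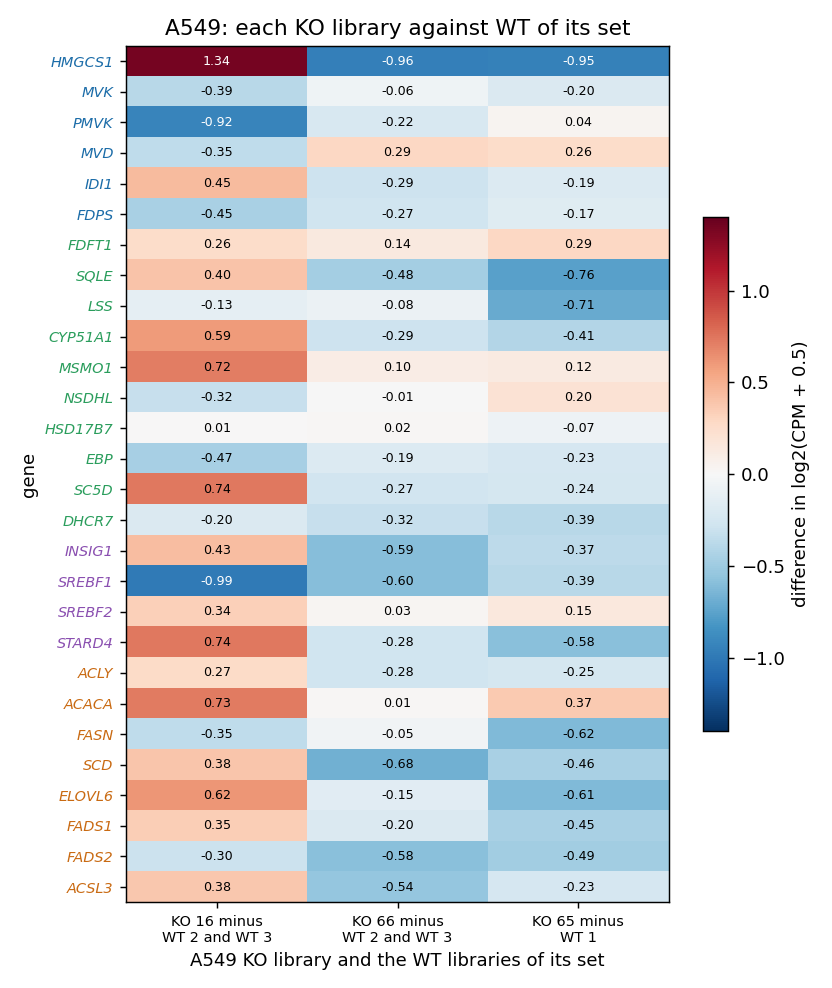
Difference in log2(CPM + 0.5) of each A549 KO library (x axis) from WT of its library set, for the 28 genes by role (y axis); red is higher in KO and blue lower. The KO 16 column is mostly red, from -0.99 for SREBF1 to 1.34 for HMGCS1, while the KO 66 and KO 65 columns are mostly blue.

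The change in A549 minus the change in H1944 was tested in 1 fit of all 10 libraries. It passed for 2 of the 28 genes, 1 higher and 1 lower, where 4.1% and 2.85% of 17677 tested genes did. FDFT1 measured 88.6, 68.3 and 81.4 CPM in A549 KO 16, 65 and 66, against 55.6, 74.6 and 73.2 CPM in A549 WT 1, 2 and 3, a log2 fold change of 0.23 that did not pass, against -0.84 in H1944. The difference was 1.03 (SE 0.26, edgeR adjusted p 0.0459), and FDFT1 was higher in each A549 KO library than in WT of its set by 0.14 to 0.29 on the log2(CPM + 0.5) scale. STARD4 measured 23.8, 11.3 and 11.5 CPM in A549 KO 16, 65 and 66, against 17.2, 14.4 and 13.7 CPM in A549 WT 1, 2 and 3. Its log2 fold change was 0.04 in A549, against 1.72 in H1944, a difference of -1.72 (SE 0.41, edgeR adjusted p 0.0397). Neither call was stable: without 1 library at a time FDFT1 lost it in 8 of 10 fits (edgeR adjusted p 0.0174 to 0.202) and STARD4 in 7 of 10 (0.00159 to 0.174), without a change of sign. For CYP51A1 the difference was 0.79 and did not pass (edgeR adjusted p 0.207). The other members had differences from -0.64 to 0.77, none of which passed.

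The wild-type lines themselves held these genes at different levels, given here as a description with all 10 libraries scaled together. Of the 28 genes 21 had the higher mean in H1944 WT and 7 in A549 WT. The share over all genes was not taken, so this count and those below do not show a trait particular to the 28 genes. MSMO1 was 10.3-fold, INSIG1 8.24-fold, HMGCS1 6.61-fold, SQLE 5.36-fold and STARD4 4.96-fold higher in H1944 WT than in A549 WT. SREBF1, at 0.400 of the A549 WT level, NSDHL, EBP, LSS, ACLY, FASN and ACACA were lower in H1944 WT. By RNA28SN4 the H1944 libraries are like A549 WT 1 and unlike WT 2 and WT 3, so line and library set are mixed. Against WT 1 alone 24 genes were higher and 4 lower in H1944 WT (SREBF1, ACLY, FASN and ACACA), and against WT 2 and WT 3 20 were higher and 8 lower. PMVK, NSDHL, EBP and LSS turned between these. In that order, H1944 WT stood at 2.91, 1.11, 1.30 and 2.53 times the level of WT 1. Against WT 2 and WT 3 it stood at 0.921, 0.537, 0.642 and 0.383 times. The direction of these genes between the lines is therefore uncertain, while MSMO1 was 10.5-fold and HMGCS1 6.41-fold higher against WT 1 alone. Per kilobase of exon, ACLY, SCD and FASN led the 28 genes in A549 WT (115 ± 9.62, 62.2 ± 5.12 and 52.1 ± 5.82 CPM per kb, SD, n = 3). SCD, HMGCS1 and MSMO1 led in H1944 WT (168 ± 1.61, 118 ± 4.92 and 93.5 ± 1.09 CPM per kb, SD, n = 2). The lines were also grown in different media, so line and medium cannot be told apart.

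ACACA and LSS stood apart from the other 26 genes by library set. ACACA had 3947, 293 and 2539 counts in A549 KO 16, 65 and 66, against 205, 2589 and 2416 counts in A549 WT 1, 2 and 3. It had 357 and 86 counts in H1944 KO and 99 and 183 counts in H1944 WT. So it was low in KO 65, in WT 1 and in every H1944 library, whatever the genotype. LSS had 728, 72 and 796 counts in A549 KO 16, 65 and 66, against 114, 860 and 811 counts in A549 WT 1, 2 and 3. KO 65 lay below the mean of KO 16 and KO 66, and WT 1 below the mean of WT 2 and WT 3, by more than 2 on the log2(CPM + 0.5) scale in both genes. That held for 2.24% of all tested genes and for none of the other 26. Around ACACA on chromosome 17 it held for 22 of the 29 tested genes within 1 Mb, 75.9%. Among them were AATF, SYNRG and the TBC1D3 copies. Of these copies TBC1D3I, TBC1D3H, TBC1D3L and TBC1D3D each had 68 counts in WT 1. The same reads may be counted in several copies, so the 22 are not all separate observations. Around LSS on chromosome 21 it held for 0 of 14. What sets these libraries apart at ACACA and LSS was not tested, and values of both genes between library sets or lines are therefore uncertain. Without both genes the H1944 count was 9 higher and 16 lower of 26, and in A549 0 of 26 were called.

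**Figure D5:**
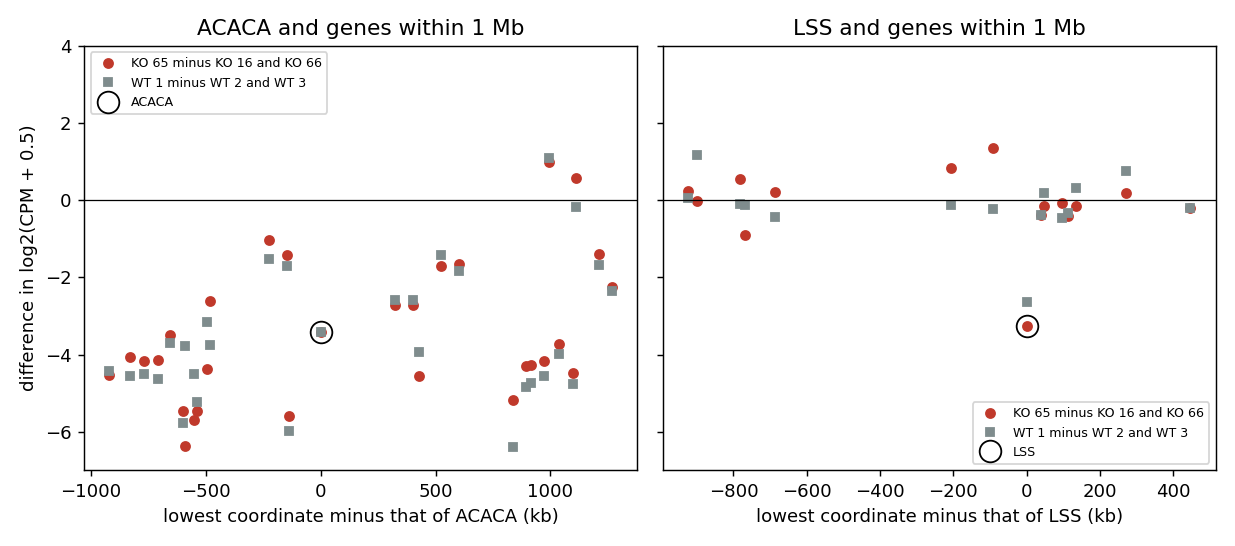
Difference in log2(CPM + 0.5) between A549 library sets within a genotype (y axis) for ACACA, LSS and tested genes within 1 Mb of each, by position relative to the gene (x axis, kb); circles are KO 65 minus the mean of KO 16 and KO 66, squares WT 1 minus the mean of WT 2 and WT 3, and the open ring marks the named gene. Around ACACA most genes lie below -2 in both genotypes, while around LSS only LSS does.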

How the data were processed

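Poly(A) RNA of 10 libraries was sequenced in paired reads of 150 bases, per the labels' protocols. Per the submitters' processing notes the authors used Trim Galore 0.5.0, HISAT2 2.1.0 with hg38, featureCounts 1.6.4 and DESeq2. The strand setting, gene annotation and handling of multiply aligned reads are not given in the sources used here. Each line has 1 deposited table of raw counts by gene symbol, which the authors did not normalize. Columns 65, 16 and 66 of A549 carry no genotype and were taken as its KO group, as no other labelled group lacked columns; which labelled replicate each is remains unknown.

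Genes were kept by filterByExpr (minimum count 10), scaled by TMM and tested with edgeR 4.0.16 (R 4.3.3; robust quasi-likelihood test), with Benjamini-Hochberg adjusted p under 0.05 over all tested genes. Lines were fitted separately (3 against 3 and 2 against 2 libraries), and their difference in 1 fit of 10. Standard errors are approximate. Single A549 genes also had exact permutation tests. Alternatives used DESeq2 1.42.0, limma 3.58.1 (voom), other scaling, no filter, library sets, a replicate block and each library left out. The fits were tested on simulated data. Differences within A549 sets used log2(CPM + 0.5). Exon lengths came from GENCODE 29. Chi-square per gene between libraries of a group was 1.89 for A549 WT 2 and WT 3, 223 to 225 for WT 1 against either, 126 to 256 in A549 KO and 2.87 to 3.26 in H1944. None was within counting noise, so each library counted as 1 sample, but technical repeats can differ as much. Of each other list, the 3 genes with the smallest adjusted p in H1944 are named, except 1 that is not reported here; SCAP, HACD1 and SLC25A20 were added after their values were seen. The members and lists were chosen with earlier results of these data known. Equally numbered H1944 libraries share only a number: their deviations correlated at 0.0210.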

Additional observations from a re-analysis of the deposited data

Results flagged for a closer look

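The change in A549 minus the change in H1944, tested as an interaction in the fit of 10 libraries by edgeR, passed for 2 members and for 7 of 98 tested genes of the other lipid lists, 7.14%, near the 6.95% of all 17677 tested genes. FDFT1 had a difference of 1.03 and STARD4 of -1.72 on the log2 scale, and both lost the call without most single libraries.

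Among the other lists LBR had a difference of 1.82 and ELOVL7 of 3.19, both lower in H1944 KO than in H1944 WT. SCD5 had -3.77, FADS3 -2.39, HACD1, an acyl-CoA dehydratase, -2.05 and NPC2 -1.29, all higher in H1944 KO than in H1944 WT. SLC25A20, the mitochondrial carnitine carrier, had 1.35, with 17.1 ± 0.206 CPM in H1944 KO and 34.4 ± 2.56 CPM in H1944 WT (SD, n = 2 each). In A549 none of these genes passed in its own line. Without 1 library at a time HACD1 stayed called in 10 of 10 fits, FADS3 in 9, SCD5 and SLC25A20 in 5, LBR and ELOVL7 in 3 and NPC2 in 2, with edgeR adjusted p of up to 0.183 and no change of sign.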

How the results depend on the processing

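In H1944 the 28 genes gave 9 higher and 17 lower, 6 to 10 higher and 14 to 16 lower without 1 library at a time, and 1 and 1 (of all genes 1177 and 1345) with all 10 libraries in 1 fit, also without ACACA and LSS. With the replicate block they gave 9 and 17, with 5568 and 5660 over all genes, so it changed no call of a member. In A549 no paired analysis was possible, because the KO columns carry no labelled replicate number. SC5D, SREBF1 and FASN did not pass by DESeq2. ACACA in H1944 was -0.0473 by voom and -1.17 to 0.95 without 1 library, passing as lower without KO 1 and as higher without KO 2.

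Over all A549 genes the counts higher and lower were 81 and 44 by DESeq2, 2 higher without the filter, 1 lower with the set as covariate, 0 higher in the larger set alone, 10 and 6 with 10 libraries, and 0 without any 1 library. Among A549 members CYP51A1 turned to -0.0259 with DESeq2 or its size factors, -0.0385 by voom, -0.0172 without the filter and -0.0217 with 10 libraries. STARD4 was -0.0485 and HMGCS1 -0.19 by voom. Without 1 library STARD4 ran from -0.41 to 0.22, HMGCS1 from -0.94 to 0.57, CYP51A1 from -0.31 to 0.16, INSIG1 from -0.60 to 0.17, SCD from -0.61 to 0.0139, ACACA from -0.31 to 0.93 and LSS from -0.63 to 0.38. The causes were not tested.

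For the line difference, counts over all genes (725 and 503) were 1262 and 1056 by DESeq2, 249 to 1606 and 133 to 1286 without 1 library, and, chosen after seeing the data, 1732 and 1662 with the larger A549 set and 3947 and 3737 with the smaller. Members gave 0 to 1 each way without 1 library, 0 higher without the filter (FDFT1, edgeR adjusted p 0.0638), 2 lower with the larger set, and 7 higher and 12 lower with the smaller set, where A549 has 1 library per genotype and its spread is taken from H1944. With 2 or 3 libraries a group the spread limits these comparisons, a coefficient of variation of 39.0% in A549 and 4.74% in H1944.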
